A study of Mus musculus with 9 samples.

Results

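The AP-1 and EGR immediate early genes were examined in HC11 cells, a mouse mammary epithelial line derived from mid-pregnancy BALB/c mice. The set held 10 genes, namely the Jun family members Jun, Junb and Jund, the Fos family members Fos, Fosb, Fosl1 and Fosl2, and the zinc finger genes Egr1, Egr2 and Egr3. They were chosen by name, out of 19937 genes with a probeset of their own on the array, and each of the 10 was represented by 1 probeset annotated to that gene alone. All 10 had a mean log2 expression over 9 arrays of at least 4, a level that 13157 of the 19937 genes reached and that the study used as its expression minimum.

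The 3 strains were compared, with 3 Affymetrix Mouse Gene 1.0 ST arrays each. HC11-ΔSAP cells stably expressed red fluorescent protein (RFP)-tagged Mkl1 without its SAP domain, HC11-mutB1 cells expressed Mkl1-RFP with alanine substitutions in the B1 region through which Mkl1 binds serum response factor (SRF), and HC11-FL control cells expressed full length Mkl1-RFP. All strains, the controls included, thus carried an overexpressed Mkl1 fusion, and all had been kept for 48 h in 0.03% FCS without epidermal growth factor before RNA was extracted. Each construct was represented by 1 drug-selected and sorted strain, no empty vector strain was arrayed, and the labels do not say whether the 3 arrays of a strain came from separate cultures, so that the p-values measure the spread between these arrays.

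Immediate early genes are transcribed within minutes of a growth factor or serum signal without new protein synthesis, and many of their transcripts decay quickly. Jun and Fos proteins pair through leucine zippers to form AP-1, which binds a short palindromic site in promoters and enhancers, and EGR proteins are zinc finger factors that bind GC-rich sites. Several of these genes have CArG boxes, bound by SRF together with either a ternary complex factor (Elk1, Elk3, Elk4), which is activated by ERK, or Mkl1, which enters the nucleus when actin polymerizes. In the mammary gland AP-1 factors are known for roles in proliferation and in the remodelling of the gland after lactation.

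Promoters are shown for Jun and Jund, the members that passed a test described below, and for Egr2, which passed none, because its window holds a CArG box. They are RefSeq sequences of build GRCm38.p6, from 250 bases before to 50 bases after an annotated start site, written 5′ to 3′ on the strand of the gene, and 7 of the 10 members had such an entry. Capitals mark a match to a searched motif. Jun lies on the minus strand (chr4:95052173-95052472), Jund on the plus strand (chr8:70697489-70697788), and the window shown for Egr2, one of 5 annotated for this gene, on the plus strand (chr10:67537619-67537918).
Jun: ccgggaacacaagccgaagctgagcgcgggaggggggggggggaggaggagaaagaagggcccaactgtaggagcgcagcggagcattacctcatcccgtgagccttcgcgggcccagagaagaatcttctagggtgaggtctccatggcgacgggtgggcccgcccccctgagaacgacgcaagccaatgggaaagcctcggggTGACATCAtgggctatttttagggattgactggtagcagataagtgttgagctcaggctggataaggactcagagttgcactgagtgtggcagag
Jund: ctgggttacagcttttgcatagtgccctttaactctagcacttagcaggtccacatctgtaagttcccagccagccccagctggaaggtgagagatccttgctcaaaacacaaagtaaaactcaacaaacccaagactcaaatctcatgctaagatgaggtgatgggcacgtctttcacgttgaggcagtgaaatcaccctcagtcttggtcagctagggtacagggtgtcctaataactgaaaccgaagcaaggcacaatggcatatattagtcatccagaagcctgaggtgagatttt
Egr2: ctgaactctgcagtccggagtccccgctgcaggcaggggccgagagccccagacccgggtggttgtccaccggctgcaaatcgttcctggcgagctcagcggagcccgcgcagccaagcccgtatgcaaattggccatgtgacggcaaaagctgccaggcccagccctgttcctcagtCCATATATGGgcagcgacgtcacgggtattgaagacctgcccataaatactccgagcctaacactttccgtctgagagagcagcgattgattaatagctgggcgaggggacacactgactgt

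The capitals in Jun are the AP-1 variant TGACATCA, 45 to 38 bases before the start, an element through which Jun is known to act on its own gene. This motif occurred on either strand in 3.62% of all 32851 promoter windows. The capitals in Egr2 are a CArG box, CCATATATGG, at 72 to 63 bases before the start, and a CArG box occurred in 1.63% of all windows. This 1 site also lies in the 2 other Egr2 windows that overlap the one shown, and a separate window of the 5 holds another box, CCTTTTTTGG. The EGR site GCGGGGGCG was found in Fosb (50 to 42 bases before the start) and in Fosl2 (79 to 71 bases before it), and GCGGGGGCG or GCGTGGGCG was present in 3.47% of all windows. In the windows of Jund, Fos and Junb none of the searched motifs matched, which were also the AP-1 site TGACTCA (5.2% of windows), the CRE TGACGTCA (1.79%) and the ETS core CCGGAAGT (3.89%), each on both strands. These matches describe the letters of the windows only. Sites further than 250 bases before a start were not searched. Fosl1, Egr1 and Egr3 had no entry and were not searched at all.

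Before the members were compared, the arrays were checked against cell type markers. Of 12 mammary epithelial markers 11 had a mean log2 expression of at least 4 and 10 of at least 6, whereas of 6 endothelial markers 1 reached 4. The log2 of the summed epithelial markers lay at 13.12 to 13.14 in HC11-ΔSAP, 13.35 to 13.40 in HC11-mutB1 and 13.35 to 13.40 in HC11-FL arrays. Relative to HC11-FL cells 3 of the 12 rose and 7 fell in HC11-ΔSAP, and 4 rose and 4 fell in HC11-mutB1 cells. The log2 of the summed fibroblast markers, of which 6 of 8 reached 4, lay at 8.92 to 8.94 in HC11-ΔSAP, 8.73 to 8.81 in HC11-mutB1 and 8.91 to 8.94 in HC11-FL arrays. The sums do not show that 1 of the 8 rose (Dcn, 1.81) and 2 fell (Pdgfra, -0.42, and Pdgfrb, -0.38) in HC11-ΔSAP relative to HC11-FL cells. In HC11-mutB1 relative to HC11-FL cells 1 rose and 2 fell. The log2 of the sum over 7 immune cell markers, of which 4 reached 4, lay at 10.24 to 10.27 in HC11-ΔSAP, 9.42 to 9.46 in HC11-mutB1 and 9.18 to 9.22 in HC11-FL arrays. Relative to HC11-FL cells 2 of the 7 rose and 0 fell in HC11-ΔSAP, and 1 rose and 1 fell in HC11-mutB1 cells. Cd14, which epithelial cells can also express, held most of this sum (means of 9.74 in HC11-ΔSAP, 8.82 in HC11-mutB1 and 8.24 in HC11-FL cells). Cd68 differed from HC11-FL by 0.45 in HC11-ΔSAP and by -0.34 in HC11-mutB1 cells (limma adjusted p = 0.00013 and 0.00062). The list's median difference between HC11-ΔSAP and HC11-FL cells was -0.01 over all 7 and 0.20 over the 4 that reached 4. Of 5 adipocyte markers 3 reached 4, and their sum lay at 9.31 to 9.47 in HC11-ΔSAP, 7.35 to 7.60 in HC11-mutB1 and 8.20 to 8.35 in HC11-FL arrays. This sum was mostly Fabp4 (means of 9.26 in HC11-ΔSAP, 6.96 in HC11-mutB1 and 7.93 in HC11-FL cells), the other 4 were not called in any comparison, and the list medians relative to HC11-FL were -0.02 in HC11-ΔSAP and -0.09 in HC11-mutB1 cells. Proliferation markers differed too: of 11 measured, 10 fell and 0 rose in the HC11-ΔSAP strain, while 8 rose and 0 fell in the HC11-mutB1 strain, both relative to HC11-FL cells. The part of these markers in the values of the AP-1 and EGR genes was not tested.

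The differences between strains were small for all 10 genes in these starved cells. Their induction by a signal was not measured on these arrays. The study did measure Fos by qRT-PCR in starved HC11 cells, and reported its induction by static and by cyclic strain. Fos, Fosb, Fosl1, Egr1, Egr2 and Egr3 had means over the 9 arrays of 4.46 (Fosb) to 5.92 (Fosl1), where array medians lay between 4.53 and 4.60. Whether such low levels hide larger differences was not tested. The means of the 3 strains spanned 0.07 (Fos) to 0.41 (Jun) on the log2 scale, and all 30 differences (10 genes in 3 comparisons) had a 95% confidence interval inside a 2-fold change in either direction, with bounds from -0.53 to 0.64. At an adjusted p of at most 0.01 (limma, Benjamini-Hochberg over all 34760 probesets), 1 of the 10 members rose and 0 fell in HC11-ΔSAP relative to HC11-FL cells. In this comparison 28% of the 13157 genes with a mean log2 of at least 4 passed (16% higher, 12% lower), and 13.1% of all probesets. In HC11-mutB1 relative to HC11-FL cells 1 member rose and 0 fell, where 26.3% of these genes (15.7% higher, 10.6% lower) and 12.1% of all probesets passed. In HC11-ΔSAP relative to HC11-mutB1 cells 1 member rose and 0 fell, beside 20.5% of these genes (9.86% higher, 10.6% lower) and 9.38% of all probesets. With the filters of the study, which also ask for a 2-fold change, 0 members passed in any comparison, while 4.13%, 3.88% and 3.89% of the genes did in the same order. The comparisons with HC11-FL share the same control arrays.

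**Figure D1:**
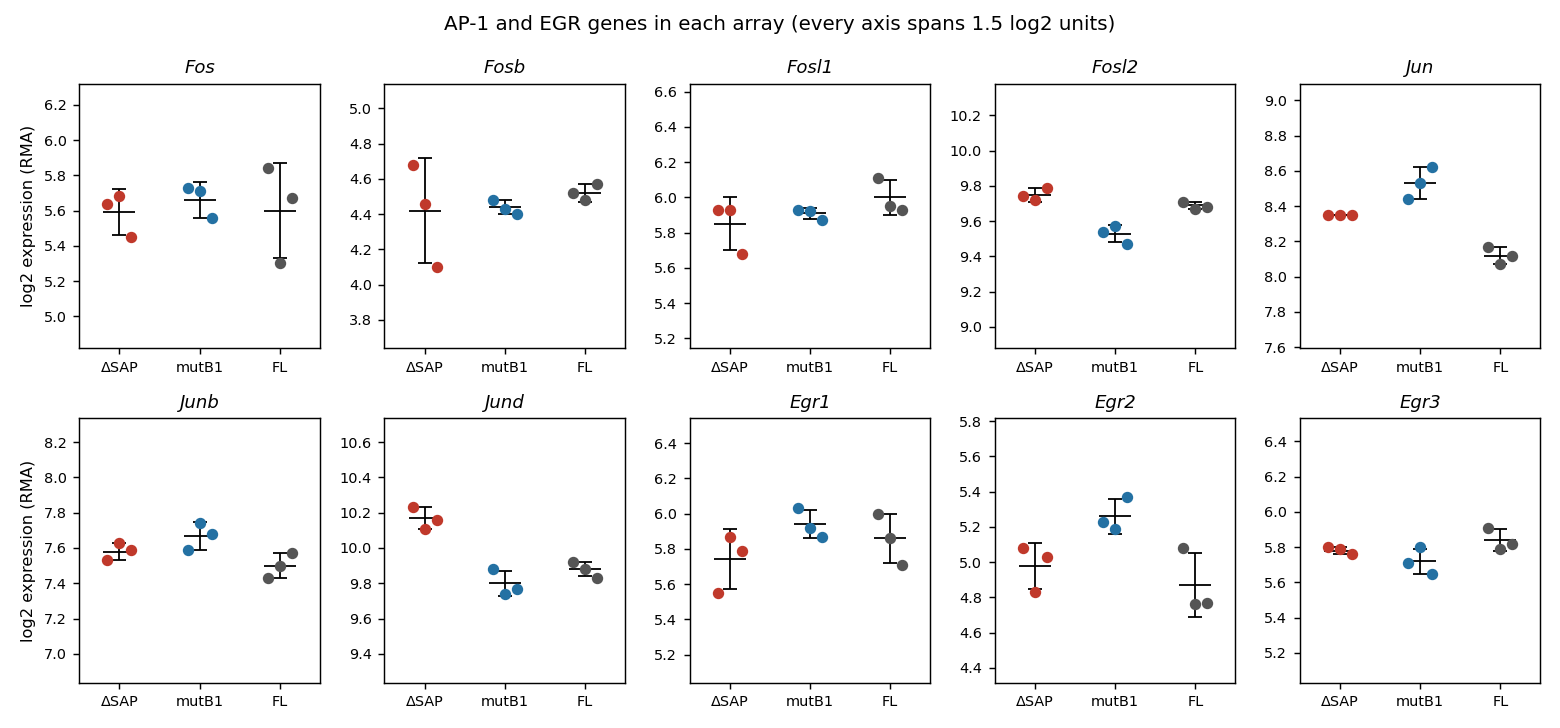
Log2 expression (RMA, y axis) of the 10 AP-1 and EGR genes in each of the 9 arrays, by strain (x axis); points are arrays, horizontal lines the strain mean and bars the SD (n = 3). Every panel spans 1.5 log2 units: Jun is lowest in HC11-FL (8.07 to 8.17), Jund is highest in HC11-ΔSAP (10.11 to 10.23), and the 3 Fos values of HC11-FL (5.30 to 5.84) spread over those of both other strains.

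The median difference of the 10 members was 0.02 between HC11-ΔSAP and HC11-FL cells and 0.00 over the 13157 genes. Between HC11-mutB1 and HC11-FL cells it was -0.01 for the members and -0.01 for the genes, and between HC11-ΔSAP and HC11-mutB1 cells -0.07 for the members and 0.02 for the genes. The median absolute difference of the members was 0.11, 0.11 and 0.13 in these 3 comparisons, beside 0.16, 0.17 and 0.13 over the genes. Arrays of HC11-ΔSAP and HC11-FL cells did not overlap for 3 members, all higher in HC11-ΔSAP, while 28.5% of the genes were higher and 24.9% lower without overlap. For HC11-mutB1 and HC11-FL cells 3 members were higher and 1 lower without overlap, beside 29.5% and 25.6% of the genes. For HC11-ΔSAP and HC11-mutB1 cells 2 were higher and 2 lower, beside 26.4% and 24.5% of the genes.

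The Jun family held all of the members that passed the test, which are too few to be read as a trait of the family. Jun, a central partner in AP-1 dimers, gave log2 values of 8.35, 8.35 and 8.35 in HC11-ΔSAP, 8.44, 8.53 and 8.62 in HC11-mutB1, and 8.17, 8.07 and 8.12 in HC11-FL cells. The strains did not overlap, and were highest in HC11-mutB1 and lowest in HC11-FL. In HC11-mutB1 cells Jun rose by 0.41 over HC11-FL cells (log2, SE 0.05, 95% confidence interval 0.28 to 0.54, 1.33-fold, adjusted p = 0.0011, limma). The difference between HC11-ΔSAP and HC11-FL cells was 0.23 (SE 0.05, interval 0.11 to 0.36, 1.18-fold) and did not pass in limma (adjusted p = 0.018). It passed in 2 of 7 other fits. These were the fit with an intensity trend and robust prior (adjusted p = 0.0094) and that of only probesets with a mean log2 of at least 4 (adjusted p = 0.0089). It passed in 0 of 9 fits without a single array (adjusted p 0.012 to 0.059). HC11-ΔSAP and HC11-mutB1 cells differed by -0.18 (interval -0.30 to -0.05, limma adjusted p = 0.073). The 3 HC11-ΔSAP arrays held only 2 distinct values for this probeset, 1 of them deposited for 2 arrays, so that their SD of 0.00 may understate the spread. A value repeated among the 9 arrays, within or between strains, occurred in 5 of the 10 members and in 45.2% of all probesets. Of the members only Jun and Fosl1 repeated a value within a strain.

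Jund, a Jun protein that in many cell types is present at rest and slows growth, showed another order. Its log2 values were 10.23, 10.11 and 10.16 in HC11-ΔSAP, 9.88, 9.74 and 9.77 in HC11-mutB1, and 9.92, 9.88 and 9.83 in HC11-FL cells. All HC11-ΔSAP arrays lay above all others, and the HC11-mutB1 and HC11-FL arrays overlapped. In HC11-ΔSAP cells Jund rose by 0.29 over HC11-FL cells (SE 0.06, interval 0.16 to 0.42, 1.22-fold, limma adjusted p = 0.0068) and by 0.37 over HC11-mutB1 cells (SE 0.06, interval 0.24 to 0.50, 1.30-fold, limma adjusted p = 0.0025). HC11-mutB1 and HC11-FL cells differed by -0.08 (interval -0.21 to 0.05, limma adjusted p = 0.41). Both calls lay close to the threshold. The difference from HC11-FL passed in 1 of the 9 fits that left out a single array (adjusted p from 0.0066 to 0.029), and neither call passed in a fit of only the 6 arrays compared (adjusted p = 0.015 against HC11-FL and 0.011 against HC11-mutB1).

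Junb, a Jun protein that in several settings counteracts Jun in the cell cycle, gave 7.53, 7.63 and 7.59 in HC11-ΔSAP, 7.59, 7.74 and 7.68 in HC11-mutB1, and 7.43, 7.50 and 7.57 in HC11-FL cells. The HC11-mutB1 arrays lay above the HC11-FL arrays without overlap, by 0.17 (interval 0.03 to 0.30, limma adjusted p = 0.092). The difference between HC11-ΔSAP and HC11-FL cells was 0.08 (interval -0.05 to 0.22, limma adjusted p = 0.45), and that between HC11-ΔSAP and HC11-mutB1 cells -0.09 (interval -0.22 to 0.05, limma adjusted p = 0.44). The RNA was that of whole cultures, in which a change in the number of cells that carry a transcript and a change per cell cannot be told apart.

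Of the 4 Fos family genes 0 passed the test in any comparison, beside 28%, 26.3% and 20.5% of the genes in the order given above. This count is too small to set against these shares. Fos, the prototype immediate early gene, gave 5.64, 5.68 and 5.45 in HC11-ΔSAP, 5.73, 5.71 and 5.56 in HC11-mutB1, and 5.84, 5.30 and 5.67 in HC11-FL cells. The HC11-FL arrays alone spread over the values of the other strains. The differences were -0.01 (interval -0.33 to 0.30) between HC11-ΔSAP and HC11-FL, 0.06 (interval -0.25 to 0.37) between HC11-mutB1 and HC11-FL, and -0.07 (interval -0.39 to 0.24) between HC11-ΔSAP and HC11-mutB1 cells, with limma adjusted p-values of 0.97, 0.83 and 0.80. The sign of both differences from HC11-FL turned when single arrays were left out.

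Fosl2, a Fos family protein without the strong activation domain of Fos, was tightly measured. It gave 9.74, 9.72 and 9.79 in HC11-ΔSAP, 9.54, 9.57 and 9.47 in HC11-mutB1, and 9.71, 9.67 and 9.68 in HC11-FL cells. The HC11-mutB1 arrays lay below all others. The difference was 0.22 between HC11-ΔSAP and HC11-mutB1 cells (SE 0.05, interval 0.12 to 0.33, 1.17-fold, limma adjusted p = 0.011) and -0.16 between HC11-mutB1 and HC11-FL cells (interval -0.27 to -0.06, limma adjusted p = 0.042). Between HC11-ΔSAP and HC11-FL cells it was 0.06 (interval -0.04 to 0.17, limma adjusted p = 0.45). The difference between HC11-ΔSAP and HC11-mutB1 cells passed in 2 of 7 other fits. These were the fit with an intensity trend and robust prior (adjusted p = 0.0031) and that of only probesets with a mean log2 of at least 4 (adjusted p = 0.0055). It passed in 0 of 9 fits without a single array (adjusted p 0.018 to 0.043).

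Fosl1, known for its part in epithelial cell migration, ranged from 5.68 to 5.93 in HC11-ΔSAP, 5.87 to 5.93 in HC11-mutB1 and 5.93 to 6.11 in HC11-FL cells. The lowest HC11-FL array thus matched the highest arrays of both other strains. Its difference from HC11-FL was -0.15 in HC11-ΔSAP (interval -0.34 to 0.04, limma adjusted p = 0.30) and -0.09 in HC11-mutB1 cells (interval -0.28 to 0.10, limma adjusted p = 0.56), and HC11-ΔSAP and HC11-mutB1 cells differed by -0.06 (interval -0.25 to 0.13, limma adjusted p = 0.72). Fosb, a Fos family member best known from neurons, lay near the expression minimum, at 4.10 to 4.68 in HC11-ΔSAP, 4.40 to 4.48 in HC11-mutB1 and 4.48 to 4.57 in HC11-FL cells. HC11-ΔSAP arrays had the widest spread of any member and strain (SD 0.30). The Fosb difference from HC11-FL was -0.11 in HC11-ΔSAP (interval -0.41 to 0.19, limma adjusted p = 0.69) and -0.08 in HC11-mutB1 cells (interval -0.38 to 0.21, limma adjusted p = 0.74), and HC11-ΔSAP and HC11-mutB1 cells differed by -0.02 (interval -0.32 to 0.27, limma adjusted p = 0.94).

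**Figure D2:**
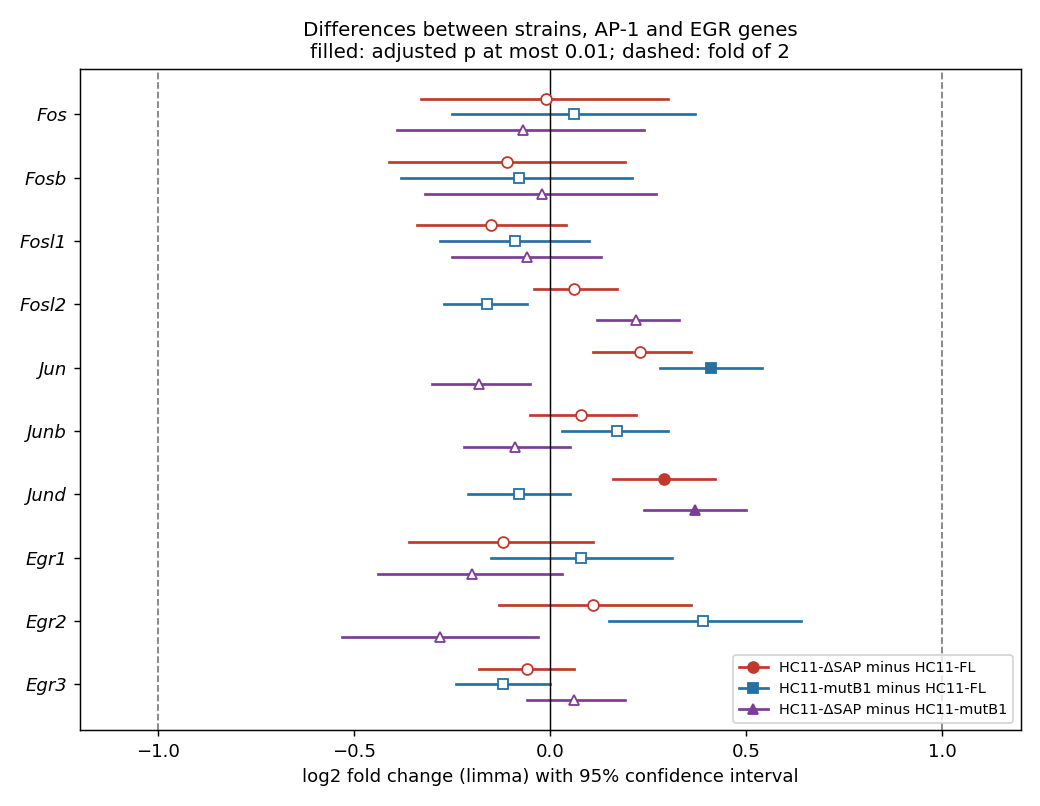
Log2 fold change (x axis) of each member (y axis) with its 95% confidence interval from limma, for HC11-ΔSAP minus HC11-FL (circles), HC11-mutB1 minus HC11-FL (squares) and HC11-ΔSAP minus HC11-mutB1 (triangles); filled symbols have an adjusted p of at most 0.01 and dashed lines mark a 2-fold change. The 3 filled symbols belong to Jun (0.41) and Jund (0.29 and 0.37), and no interval reaches a dashed line.

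Of the 3 EGR genes 0 passed the test in any comparison, beside the same 28%, 26.3% and 20.5% of the genes, a count too small to set against these shares. Egr2, a zinc finger factor best known from Schwann cells and lymphocytes, had the largest difference among them. It gave 5.08, 4.83 and 5.03 in HC11-ΔSAP, 5.23, 5.19 and 5.37 in HC11-mutB1, and 5.08, 4.76 and 4.77 in HC11-FL cells. The HC11-mutB1 arrays lay above all others, and 1 HC11-FL array was level with the highest HC11-ΔSAP array. Egr2, whose CArG box is shown above, was 0.39 above HC11-FL in HC11-mutB1 cells (SE 0.11, interval 0.15 to 0.64, 1.31-fold, limma adjusted p = 0.037). This difference passed in 0 of 7 other fits and in 1 of 9 without a single array (adjusted p 0.0097 to 0.12). The 1 that passed was the fit without HC11-FL replicate 1 (0.50, adjusted p = 0.0097). The Egr2 difference was 0.11 in HC11-ΔSAP relative to HC11-FL cells (interval -0.13 to 0.36, limma adjusted p = 0.60) and -0.28 in HC11-ΔSAP relative to HC11-mutB1 cells (interval -0.53 to -0.03, limma adjusted p = 0.14).

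Egr1, which is induced by serum, growth factors and mechanical strain, gave 5.55, 5.87 and 5.79 in HC11-ΔSAP, 6.03, 5.92 and 5.87 in HC11-mutB1, and 6.0, 5.86 and 5.71 in HC11-FL cells. All strains overlapped. Its differences were -0.12 between HC11-ΔSAP and HC11-FL (interval -0.36 to 0.11), 0.08 between HC11-mutB1 and HC11-FL (interval -0.15 to 0.31) and -0.20 between HC11-ΔSAP and HC11-mutB1 cells (interval -0.44 to 0.03), with limma adjusted p-values of 0.54, 0.68 and 0.28. Egr3, a target of the same signals, ranged from 5.76 to 5.80 in HC11-ΔSAP, 5.65 to 5.80 in HC11-mutB1 and 5.79 to 5.91 in HC11-FL cells. Its differences from HC11-FL were -0.06 in HC11-ΔSAP and -0.12 in HC11-mutB1 cells (limma adjusted p = 0.59 and 0.18), and HC11-ΔSAP and HC11-mutB1 cells differed by 0.06 (interval -0.06 to 0.19, limma adjusted p = 0.53).

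Genes for factors that act on these promoters were examined next. Of 9 genes for SRF, its cofactors and the NAB corepressors of EGR proteins, 4 fell and 0 rose in the HC11-ΔSAP strain, and 3 fell and 0 rose in the HC11-mutB1 strain, both relative to HC11-FL cells, beside 12% and 10.6% of the 13157 genes lower. Their median log2 difference was -0.31 in HC11-ΔSAP and -0.12 in HC11-mutB1 cells. The 4 that fell in HC11-ΔSAP cells included Mrtfa, the gene for Mkl1, whose probeset may also detect the construct. Elk1, a ternary complex factor that activates Fos and Egr1 when phosphorylated by ERK, gave 7.29, 7.13 and 7.17 in HC11-ΔSAP, 7.56, 7.44 and 7.43 in HC11-mutB1, and 8.0, 7.96 and 8.10 in HC11-FL cells. It fell in both strains, by 0.82 in HC11-ΔSAP (1.77-fold, limma adjusted p = 5.9e-05) and by 0.54 in HC11-mutB1 cells (1.45-fold, limma adjusted p = 0.00061). Elk3, a ternary complex factor that represses at rest, fell by 0.59 in HC11-ΔSAP and by 0.45 in HC11-mutB1 cells relative to HC11-FL (limma adjusted p = 9.7e-05 and 0.00046), with values of 8.90 in all 3 HC11-FL arrays. Nab2, a corepressor that is itself an EGR target, gave 7.98, 7.97 and 7.91 in HC11-ΔSAP, 7.95, 7.76 and 7.71 in HC11-mutB1, and 8.37, 8.22 and 8.33 in HC11-FL cells. It fell by 0.50 in HC11-mutB1 cells (limma adjusted p = 0.0018) and by 0.35 in HC11-ΔSAP cells (limma adjusted p = 0.0095), and this HC11-ΔSAP call passed in 1 of 9 fits without a single array and not with the replicate number as a block (adjusted p = 0.012).

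The remaining ternary complex factor and corepressor did not pass. Elk4 differed by -0.31 in HC11-ΔSAP and -0.13 in HC11-mutB1 cells (limma adjusted p = 0.073 and 0.48), and Nab1 by -0.03 and 0.03 (limma adjusted p = 0.64 and 0.72). Srf, at 7.83 to 7.90 in HC11-ΔSAP, 7.72 to 7.83 in HC11-mutB1 and 7.84 to 7.89 in HC11-FL cells, differed by 0.00 (interval -0.11 to 0.10) in HC11-ΔSAP and by -0.08 (interval -0.18 to 0.03) in HC11-mutB1 cells. The probeset of Mrtfa, the gene for Mkl1, fell by 0.48 in HC11-ΔSAP cells (limma adjusted p = 0.0018) and differed by -0.12 in HC11-mutB1 cells (limma adjusted p = 0.31). It may detect both the endogenous transcript and the construct, and whether its probes cover the deleted SAP region was not tested. Mrtfb differed by 0.17 and 0.13 (limma adjusted p = 0.038 and 0.12).

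**Figure D3:**
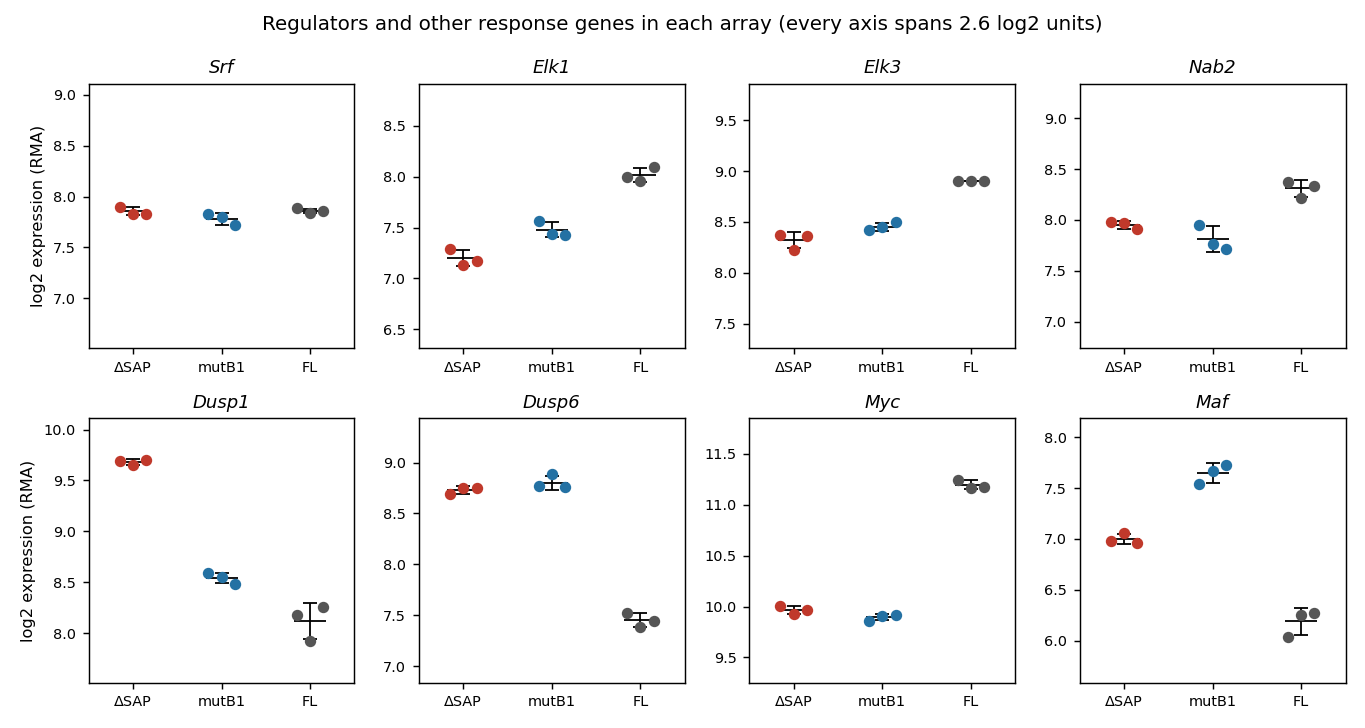
Log2 expression (RMA, y axis) of Srf, Elk1, Elk3, Nab2, Dusp1, Dusp6, Myc and Maf in each array, by strain (x axis); points are arrays, lines the strain mean, bars the SD (n = 3), and every panel spans 2.6 log2 units. Elk1, Elk3, Nab2 and Myc are highest in the 3 HC11-FL arrays, Dusp6 and Maf lowest there, Dusp1 is highest in HC11-ΔSAP (9.65 to 9.70), and the Srf values of all 9 arrays lie between 7.72 and 7.90.

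Many of the genes by which ERK signalling limits itself, or which ERK induces, were above their HC11-FL level. Of 22 such genes 10 rose and 1 fell in HC11-ΔSAP relative to HC11-FL cells, with a median difference of 0.35, beside 16% of the 13157 genes higher and 12% lower. In HC11-mutB1 relative to HC11-FL cells 8 were higher and 0 lower, with a median of 0.19, beside 15.7% and 10.6%. Dusp6, a phosphatase of ERK, gave 8.69, 8.75 and 8.75 in HC11-ΔSAP, 8.77, 8.89 and 8.76 in HC11-mutB1, and 7.52, 7.38 and 7.44 in HC11-FL cells. It rose 2.43-fold in HC11-ΔSAP (log2 1.28, limma adjusted p = 2.7e-06) and 2.56-fold in HC11-mutB1 cells (log2 1.36, limma adjusted p = 1.8e-06). Dusp1, a phosphatase of MAP kinases that is itself an immediate early gene, gave 9.69, 9.65 and 9.70 in HC11-ΔSAP, 8.59, 8.55 and 8.48 in HC11-mutB1, and 8.18, 7.92 and 8.26 in HC11-FL cells. It rose 2.95-fold in HC11-ΔSAP over HC11-FL cells (log2 1.56, limma adjusted p = 9.3e-06) and 2.21-fold over HC11-mutB1 cells (log2 1.14, limma adjusted p = 5.5e-05). Its rise of 0.42 in HC11-mutB1 cells (limma adjusted p = 0.0097) passed in 2 of 9 fits without a single array and not with the replicate block (adjusted p = 0.019).

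Within this list HC11-ΔSAP and HC11-mutB1 cells also differed from each other. Spry1 and Spry2, inhibitors of receptor tyrosine kinase signalling, rose by 0.95 and 1.01 in HC11-ΔSAP cells (limma adjusted p = 1.6e-05 and 0.00012) and differed by 0.13 and 0.41 in HC11-mutB1 cells (limma adjusted p = 0.18 and 0.014). Between HC11-ΔSAP and HC11-mutB1 cells Spry1 differed by 0.82 (limma adjusted p = 4e-05) and Spry2 by 0.60 (limma adjusted p = 0.0029). This Spry2 call passed in 5 of 9 fits without a single array. Dusp4, a nuclear MAP kinase phosphatase, differed by -0.89 between HC11-ΔSAP and HC11-mutB1 cells (limma adjusted p = 3.3e-05), and rose over HC11-FL by 0.42 in HC11-ΔSAP and by 1.31 in HC11-mutB1 cells (limma adjusted p = 0.0015 and 3.5e-06). Etv5, an ETS factor induced by ERK, rose by 0.89 in HC11-ΔSAP and by 1.43 in HC11-mutB1 cells (limma adjusted p = 0.00033 and 2.8e-05). It differed by -0.54 between HC11-ΔSAP and HC11-mutB1 cells (limma adjusted p = 0.0064). This last call passed in 2 of 9 fits without a single array and not with the replicate block (adjusted p = 0.02).

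Of 14 measured MAP kinases and their activators, 2 rose and 2 fell in HC11-ΔSAP, and 3 rose and 3 fell in HC11-mutB1 cells, relative to HC11-FL. Mapkapk2, a kinase downstream of p38, fell by 0.54 in HC11-ΔSAP and by 0.97 in HC11-mutB1 cells (limma adjusted p = 4.3e-05 and 1.9e-06). Among the kinases that phosphorylate Jun, Mapk8 (JNK1) differed by -0.30 in HC11-ΔSAP cells (limma adjusted p = 0.041) and fell by 0.51 in HC11-mutB1 cells (limma adjusted p = 0.0037), whereas Mapk9 (JNK2) differed by 0.28 in HC11-ΔSAP cells (limma adjusted p = 0.02) and rose by 0.40 in HC11-mutB1 cells (limma adjusted p = 0.0039). Without single arrays the 2 HC11-mutB1 calls passed in 4 of 9 fits for Mapk8 and in 5 of 9 for Mapk9.

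Other immediate early genes moved in both directions. Of 33 such genes 7 rose and 6 fell in HC11-ΔSAP, and 11 rose and 5 fell in HC11-mutB1 cells, relative to HC11-FL, with median differences of 0.05 and 0.10. Myc, a growth-promoting transcription factor, gave 10.01, 9.93 and 9.97 in HC11-ΔSAP, 9.86, 9.91 and 9.92 in HC11-mutB1, and 11.24, 11.17 and 11.18 in HC11-FL cells. It fell 2.35-fold in HC11-ΔSAP and 2.46-fold in HC11-mutB1 cells (limma adjusted p = 9.6e-07 and 7.1e-07). Of the 11 proliferation markers, as given above, 10 fell in the HC11-ΔSAP strain and 8 rose in the HC11-mutB1 strain. Ier3, a stress-induced survival gene, rose by 1.32 in HC11-ΔSAP and by 0.91 in HC11-mutB1 cells (limma adjusted p = 6.8e-06 and 4.9e-05). Plk2, a kinase induced by serum and stress, rose by 1.29 in HC11-mutB1 cells (limma adjusted p = 4e-06) and differed by 0.08 in HC11-ΔSAP cells (limma adjusted p = 0.46). Ier5 fell by 1.28 in HC11-ΔSAP and by 0.43 in HC11-mutB1 cells (limma adjusted p = 4.9e-06 and 0.0018), and Ccn2, a matricellular protein gene, rose by 0.89 in HC11-ΔSAP cells (limma adjusted p = 5.4e-05). Its fall of 0.35 in HC11-mutB1 cells (difference -0.35, limma adjusted p = 0.0081) passed in 1 of 9 fits without a single array and not with the replicate block (adjusted p = 0.022).

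Among 23 measured AP-1 dimer partners and related leucine zipper genes, 6 rose and 1 fell in HC11-ΔSAP, and 3 rose and 3 fell in HC11-mutB1 cells, relative to HC11-FL, with medians of -0.02 and -0.04. Maf, a large Maf protein that can pair with Fos and Jun, gave 6.98, 7.06 and 6.96 in HC11-ΔSAP, 7.54, 7.67 and 7.73 in HC11-mutB1, and 6.04, 6.25 and 6.27 in HC11-FL cells. The strains did not overlap. Maf rose 1.76-fold in HC11-ΔSAP and 2.76-fold in HC11-mutB1 over HC11-FL cells (log2 0.81 and 1.46, limma adjusted p = 0.00017 and 7.2e-06) and differed by -0.65 between HC11-ΔSAP and HC11-mutB1 cells (limma adjusted p = 0.00074). Its small partner Mafg rose by 0.61 and 0.64 in the same order of strains (limma adjusted p = 4.6e-05 and 3.7e-05). Cebpd rose in HC11-ΔSAP cells by 0.72 over HC11-FL and by 0.78 over HC11-mutB1 cells (limma adjusted p = 0.00027 and 0.00024). Between HC11-mutB1 and HC11-FL cells Cebpd differed by -0.05 (limma adjusted p = 0.72). Jdp2, a repressor that pairs with Jun, fell by 0.57 in HC11-ΔSAP cells (limma adjusted p = 0.00062) and by 0.44 in HC11-mutB1 cells (limma adjusted p = 0.0028), and the HC11-mutB1 call passed in 4 of 9 fits without a single array.

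Genes known as AP-1 or EGR targets were split as well. Of 19 measured AP-1 targets 4 rose and 5 fell in HC11-ΔSAP, and 8 rose and 5 fell in HC11-mutB1 cells, relative to HC11-FL, beside 16% and 12%, and 15.7% and 10.6%, of the 13157 genes. The same shares stand beside the other list counts. The changes beyond 2-fold were led by matrix proteinases: Mmp13, a collagenase, gave 4.79, 4.79 and 4.77 in HC11-ΔSAP, 3.93, 4.15 and 3.99 in HC11-mutB1, and 7.94, 7.91 and 7.75 in HC11-FL cells. It fell in both, 8.47-fold in HC11-ΔSAP (limma adjusted p = 1.7e-07), and in HC11-mutB1 cells to the expression minimum (limma adjusted p = 7.2e-08), where no size is given. Plau, the urokinase gene, fell by 0.45 in HC11-ΔSAP and by 1.25 in HC11-mutB1 cells (limma adjusted p = 0.0038 and 1.8e-05), and the HC11-ΔSAP call passed in 4 of 9 fits without a single array and not with the replicate block (adjusted p = 0.017). The metallothionein gene Mt2 went the other way and rose 2.83-fold in HC11-ΔSAP and 1.74-fold in HC11-mutB1 cells (limma adjusted p = 1.1e-06 and 3.1e-05), and Cd44, a hyaluronan receptor, rose by 0.54 and 0.97 (limma adjusted p = 9.5e-05 and 4.2e-06).

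Of 8 measured EGR targets 2 rose and 1 fell in each of HC11-ΔSAP and HC11-mutB1 relative to HC11-FL cells. Pdgfb, a growth factor chain, gave 6.68, 6.69 and 6.93 in HC11-ΔSAP, 7.78, 7.60 and 7.62 in HC11-mutB1, and 7.81, 7.78 and 7.74 in HC11-FL cells. It fell 2.01-fold in HC11-ΔSAP cells (limma adjusted p = 6.5e-05) and differed by -0.11 in HC11-mutB1 cells (limma adjusted p = 0.43). Pdgfa rose by 0.40 in HC11-mutB1 cells (limma adjusted p = 0.00097) and differed by 0.24 in HC11-ΔSAP cells (limma adjusted p = 0.012), relative to HC11-FL. Thbs1, an adhesive matrix glycoprotein gene, rose by 0.43 in HC11-ΔSAP and by 0.52 in HC11-mutB1 cells (limma adjusted p = 0.00017 and 6.1e-05). F3, the tissue factor gene, differed by 0.78 between HC11-ΔSAP and HC11-mutB1 cells (limma adjusted p = 9.2e-05), with a rise over HC11-FL of 0.47 in HC11-ΔSAP cells (limma adjusted p = 0.0011). In HC11-mutB1 relative to HC11-FL cells it fell (difference -0.31, limma adjusted p = 0.0097), a call that passed in 1 of 6 other fits and in 1 of 9 without a single array.

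**Figure D4:**
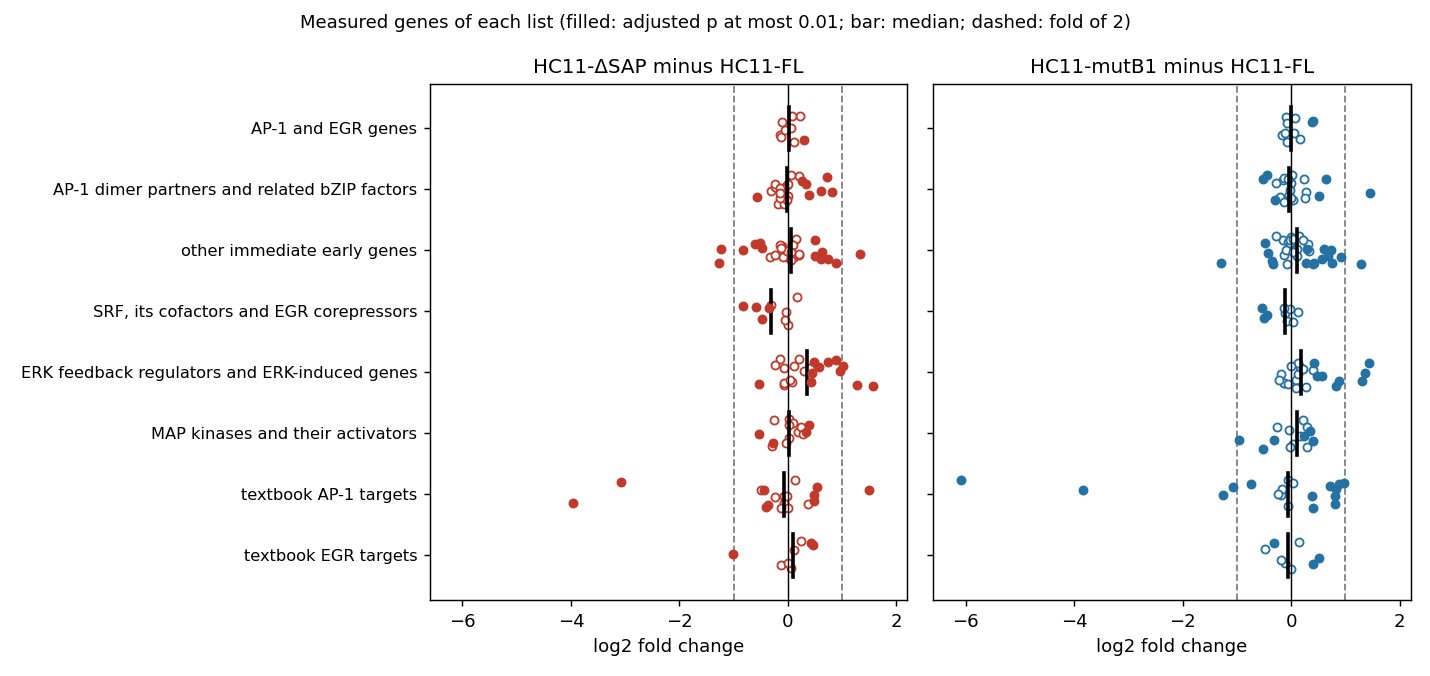
Log2 fold change (x axis) of each measured gene of the 10 AP-1 and EGR genes and of 7 related lists (y axis), for HC11-ΔSAP minus HC11-FL (left) and HC11-mutB1 minus HC11-FL (right); filled points have an adjusted p of at most 0.01, bars are list medians and dashed lines mark a 2-fold change. All points of the AP-1 and EGR genes lie between the dashed lines, while the AP-1 target Mmp3 reaches -3.97 in HC11-ΔSAP and lies furthest left in HC11-mutB1 cells, where its mean of 3.65 was below the expression minimum, so that the size there is not well defined.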

How the data were processed

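The authors deposited log2 expression values of 34760 probesets, computed from the scans by RMA (background correction, quantile normalization across arrays, summary of the probes of each probeset). R 2.10.0 and affy are named in the processing notes of the submitters. Scans were not used here, and the genome build behind the probesets was not given in the sources used here. Array medians lay between 4.53 and 4.60. In the annotation 21640 probesets had 1 gene symbol, 1321 several and 11799 none. Probesets with 1 symbol were used, and of several for a gene the one with the highest mean.

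The strains were compared with limma 3.58.1 (lmFit, eBayes; R 4.3.3), with 1 mean per strain, a spread shared by the 9 arrays (6 residual and 1.93 prior degrees of freedom) and Benjamini-Hochberg adjustment over all probesets; the threshold was 0.01 at any fold. The script was tested on simulated data. Named genes were the 10 members, 8 fixed regulators and, of each list, at most the 4 with the largest change among those that passed with a mean log2 of at least 4. Some genes named in a comparison are also given in another. The members and lists were chosen with earlier results of these data known. The alternatives were other fits, scalings, filters and thresholds, a block for the replicate number, and single arrays left out. The number of arrays limits the precision.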

Additional observations from a re-analysis of the deposited data

How the results depend on the processing

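Jun in HC11-mutB1 relative to HC11-FL cells passed in all 7 other fits (adjusted p 0.00046 to 0.0082) and in all 9 that left out an array (0.0017 to 0.006). The mean of a gene's probesets, which is among the 7, could not alter a member, as each has 1. Jund in HC11-ΔSAP relative to HC11-FL cells did not pass after renewed quantile normalization (adjusted p = 0.011) or without any of HC11-FL replicates 1, 2 and 3, HC11-ΔSAP replicates 1, 2 and 3 and HC11-mutB1 replicates 2 and 3 (0.011 to 0.029). Relative to HC11-mutB1 cells it did not pass without HC11-mutB1 replicate 2 or 3 or HC11-ΔSAP replicate 1 or 3 (0.011 to 0.013).

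The Fos difference between HC11-ΔSAP and HC11-FL cells was 0.01 after renewed quantile normalization and -0.17 to 0.10 without single arrays, and that between HC11-mutB1 and HC11-FL cells -0.09 to 0.18. Without single arrays Fosb ranged from -0.24 to 0.05 between HC11-ΔSAP and HC11-FL and from -0.16 to 0.13 between HC11-ΔSAP and HC11-mutB1 cells, Fosl1 from -0.10 to 0.02 between HC11-ΔSAP and HC11-mutB1, Cebpd from -0.11 to 0.02 between HC11-mutB1 and HC11-FL, and Srf from -0.03 to 0.01 between HC11-ΔSAP and HC11-FL cells. Srf was 0.01 with array medians subtracted.

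The number of members that rose in HC11-ΔSAP relative to HC11-FL cells was 0 with 6 arrays, renewed quantile normalization or the 2-fold filters, 2 with the intensity trend, the expression filter or a threshold of 0.05, and 0 to 1 without single arrays. Relative to HC11-mutB1 cells it was 0 with 6 arrays or the 2-fold filters, 2 with the intensity trend, the expression filter or 0.05, and 0 to 1 without single arrays. In HC11-mutB1 relative to HC11-FL cells it was 0 with the 2-fold filters, 2 at 0.05 and 1 to 2 without single arrays, and the number lower was 1 at 0.05.

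Over all probesets the 2-fold filters left 303 higher and 307 lower for HC11-ΔSAP against HC11-FL, 335 and 245 for HC11-mutB1 against HC11-FL, and 235 and 345 for HC11-ΔSAP against HC11-mutB1. At 0.05, 3408 were higher and 3218 lower for HC11-ΔSAP and 3589 higher and 2891 lower for HC11-mutB1 against HC11-FL, and 2469 were higher and 2778 lower for HC11-ΔSAP against HC11-mutB1. The number higher in this last comparison was 1507, and 1000 to 1384 without single arrays, with the lowest count without HC11-ΔSAP replicate 2.

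Deviations from the strain means were correlated between arrays of different strains. Of 9 same-numbered pairs, the 3 of replicate 1 had r of 0.11, 0.12 and 0.26, and the others did not exceed 0.1 (down to -0.11). The 18 pairs with different numbers had r of -0.26 to 0.23, so the numbers were not taken as pairs. With the replicate number as a block, no member's call changed (1 higher and 0 lower in each comparison). The calls of Nab2 and Plau in HC11-ΔSAP relative to HC11-FL cells and of Dusp1, Ccn2 and F3 (adjusted p = 0.015 for F3) in HC11-mutB1 relative to HC11-FL cells did not pass. Nor did that of Etv5 in HC11-ΔSAP relative to HC11-mutB1 cells (adjusted p = 0.02). The probesets higher and lower with this block were 2086 and 1709 for HC11-ΔSAP against HC11-FL, 2069 and 1394 for HC11-mutB1 against HC11-FL, and 1155 and 1423 for HC11-ΔSAP against HC11-mutB1.

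For the named genes of the other lists, 107 differences were refitted 642 times with other settings, of which 606 kept direction and side of the threshold, and 963 times without single arrays, of which 865 did. The causes were not tested.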
